A study of Mus musculus with 15 samples.

Results

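The protein genes of the cytosolic ribosome were followed in mouse hearts in which the RNA-binding protein CELF2 was switched on for 12 h to 7 d. A gene was taken from the deposited expression table when its symbol begins with Rpl or Rps and a digit, or is Rplp0, Rplp1, Rplp2 or Rpsa, and genes of the Rps6k kinases were left out. This gave 80 of 16199 genes, made up of 42 of the large subunit, 2 of the stalk (Rplp1 and Rplp2), 29 of the small subunit, 6 paralogs and Rps19bp1, which encodes a nucleolar partner of Rps19 and not a subunit. The table holds no row for Rplp0, which was not analysed here.

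Ventricles (atria removed) came from 15 FVB mice aged 14 to 16 weeks that ate food with, by the labels, 2 g/kg doxycycline (a mouse list of the study gives another dose), 3 mice per group and 1 library per mouse. The induced groups (12 h, 24 h, 72 h and 7 d) were bitransgenic MHCrtTA/TRECUGBP2 mice, in which the Myh6 promoter drives the doxycycline-dependent activator in cardiomyocytes and the activator turns on a human, FLAG-tagged CELF2 transgene. The control group had the MHCrtTA transgene without TRECUGBP2 and ate doxycycline for 72 h. Every time point shares these 3 controls, and except at 72 h the feeding time differs from control as well as CELF2. The labels of induced hearts also name a Celf1 cassette, which is at odds with their genotype and was not used. Levels are RPKM, read numbers scaled to the constitutive coding length of a gene and to the mapped reads of a library, which can be compared between genes because they are per length.

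The mouse Celf2 row, listed under its older symbol Cugbp2, was at 8.54 to 11.3 RPKM in control hearts and at 84.5 to 359 RPKM in induced hearts. The transgene is human and reads were mapped to the mouse genome, so this row does not separate transgene from mouse Celf2 mRNA. The sample titles carry a code that splits the libraries into 3 sets, called library sets A, B and C here, and the sources do not explain it. Set A holds hearts of all groups, set B only control, 12 h and 24 h hearts, and set C only 72 h and 7 d hearts, so part of any late difference cannot be told apart from the library set. Summed Y-linked mRNA was at most 0.06 RPKM in all 12 h hearts and at least 53.6 RPKM in all 72 h and 7 d hearts, with control and 24 h hearts on both sides. Part of any difference between 12 h and 7 d therefore cannot be told apart from the difference in Y-linked mRNA. Summed markers of cardiomyocytes (8 genes, none at 0) spanned 41009 to 43118 RPKM in control and 39699 to 40999 RPKM at 7 d. In these groups, 7 lymphocyte markers summed to 0.83 to 2.41 RPKM. Markers of other cells were present in control, among them erythroid (985 to 1644 RPKM), fibroblast (637 to 692 RPKM) and endothelial markers (241 to 248 RPKM). Summed atrial markers reached 152 RPKM in control, 533 RPKM at 12 h and 347 RPKM at 7 d. In whole tissue, fewer cells of a type and less RNA per cell cannot be told apart.

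The cytosolic ribosome translates mRNA into protein, its small subunit decoding the message and its large subunit joining amino acids. Its protein mRNAs are among the most abundant of a cell and are known as TOP mRNAs, since they start with a C and a tract of pyrimidines through which mTORC1 signaling controls their translation. Heart and skeletal muscle also express Rpl3l, a muscle paralog of Rpl3, whose protein sits close to the site where the large subunit joins amino acids.

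The start tract itself is shown for members with and without it, because it is the sequence that this mRNA class is named for. RefSeq promoters (GRCm38.p6) were matched for 60 members, and on the transcribed strand a tract was counted where a C at the annotated start was followed by at least 4 bases that are each C or T. Of 53 canonical members, those of the subunits and the stalk, 13 (24.5%) had a tract at an annotated start, against 3.00% of 8467 genes tested. When the tract could begin up to 10 bases to either side, 32 of 53 (60.4%) had it, against 37.5% of genes tested. None of the 6 paralogs had it exactly at the start, and 4 of 6 had it within 10 bases. The 30 bases around the start run from 10 before to 20 from the start, with the annotated start base and the pyrimidine run that covers it in capitals. The first 4 are canonical members with a tract, and the rest are the starts of 3 of the 4 members called in a comparison of 7 d, without a tract there. Rpl3, the other called member, had no entry among the promoters used and is not shown.
Rpl35 (chr2:39005112-39005141, minus strand): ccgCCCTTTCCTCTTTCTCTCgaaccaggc
Rps18 (chr17:33955646-33955675, minus strand): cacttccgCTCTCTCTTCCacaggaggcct
Rpl28 (chr7:4792955-4792984, plus strand): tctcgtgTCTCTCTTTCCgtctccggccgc
Rpl15 (chr14:18270967-18270996, minus strand): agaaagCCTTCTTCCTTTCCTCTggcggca
Rpl3l, upstream start (chr17:24727816-24727845, plus strand): ttctagctctGtcatttgacctctggtgcc
Rpl3l, downstream start (chr17:24732675-24732704, plus strand): caacagctacAgtgccccaaatgtcctgaa
Rpl36al (chr12:69184048-69184077, minus strand): ccgtcgctcaGgttcagttccgacttccgc
Rpsa (chr9:120127756-120127785, plus strand): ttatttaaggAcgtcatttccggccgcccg

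Canonical members were abundant in every heart. Their mean levels over the 15 hearts ran from 143 RPKM for Rpl3 to 830.3 RPKM for Rps24, with a median of 335 RPKM over the 72 members that have a coding sequence in the annotation. The highest 3 were Rps24, Rpl41 at 805.8 RPKM and Rps2 at 785 RPKM. Paralogs were lower except Rpl3l, whose mean of 167 RPKM was above that of Rpl3. Rpl36al followed at 129.9 RPKM, Rps27l at 62.04 RPKM, Rpl7l1 at 24.3 RPKM and Rpl22l1 at 12.6 RPKM. Rps19bp1 was at 7.98 RPKM, and Rpl39l, known from testis, stayed under the mean of 1 RPKM needed for testing, which left 79 members tested.

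**Figure D1:**
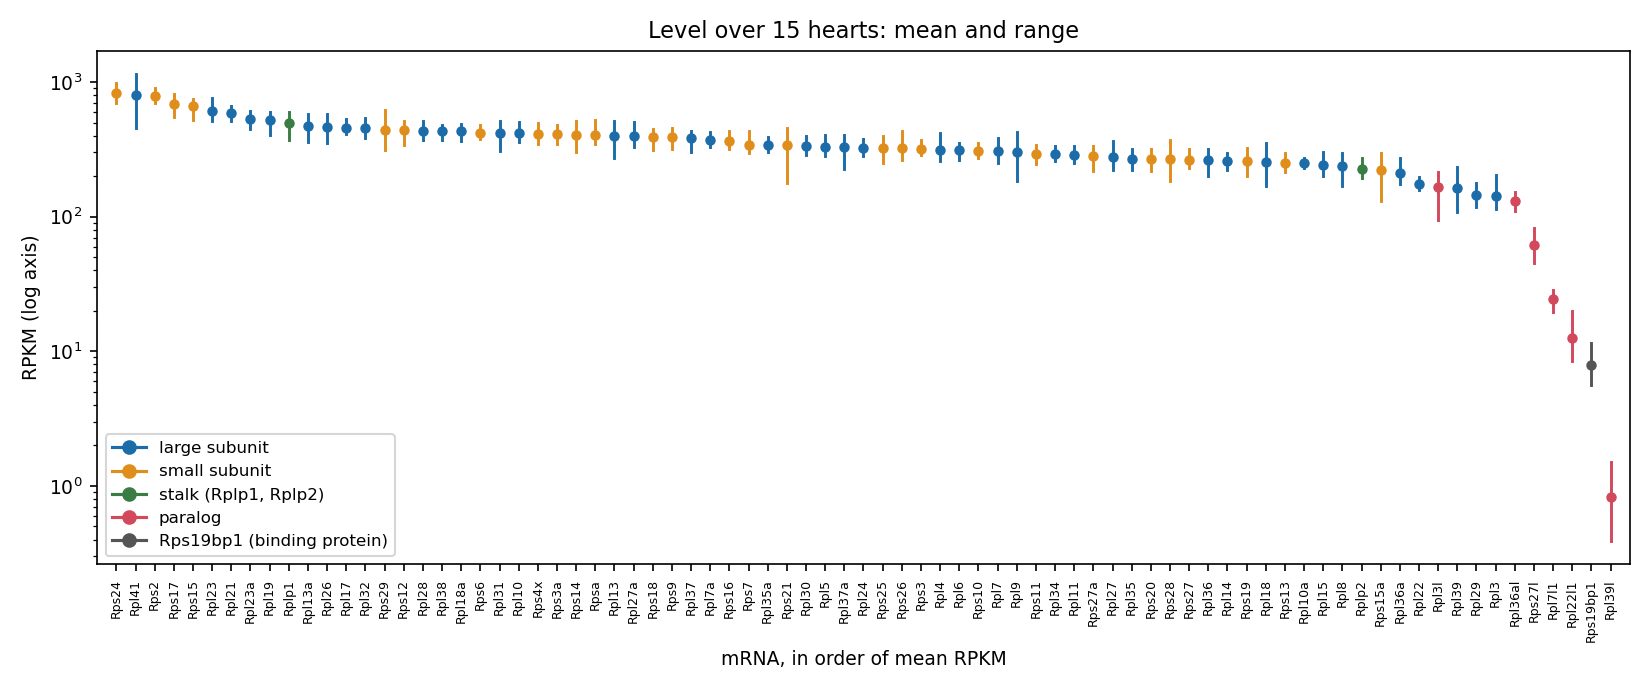
Mean RPKM (points) and range over 15 hearts (lines) of 79 of the 80 genes, on a log axis and in order of the mean, colored by class. Canonical members lie between 143 and 830.3 RPKM on average, and Rpl3l is the only paralog within that range.

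Many of these levels rest on sequence that the genome holds more than once, since ribosomal protein genes have numerous processed copies. In mm9, a median of 95.6% of the 36-base stretches of a canonical coding sequence occurred at another place, and for 30 members all of them did. These 30 had mean levels of 162 to 687 RPKM (median 379). The authors describe using uniquely mapping reads, but the counting of reads from shared stretches is not described there. Levels of canonical members, and their comparison with paralogs, are therefore uncertain, whereas Rpl3l and Rps19bp1 have no such stretch.

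The mRNAs as a group changed little over the first 72 h of induction. No member passed the threshold (limma, Benjamini-Hochberg adjusted p under 0.05 over all 10557 genes tested) at 12 h, 24 h or 72 h against control or at 24 h against 12 h, where 0.388%, 0.0947%, 0.597% and 0.559% of all genes tested were called. Unadjusted p fell under 0.05 for 0, 0, 5 and 0 of 79 members, in the same order, and for 12.3%, 9.21%, 13.7% and 6.75% of all genes tested. The median log2 change of the 79 members was -0.05 (12 h), -0.02 (24 h) and -0.03 (72 h), beside -0.10, -0.10 and -0.08 for all genes tested. With median-ratio scaling between hearts, which moves the median of all genes to 0.00, 0.01 and 0.01, the members' medians became 0.05, 0.10 and 0.06, so no direction is given for the group at these times. Changes under 0.25 in either direction were seen for 76, 78 and 66 of 79 members at the 3 times. The median SE of a member's log2 change was 0.12.

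At 7 d, 1 member rose and 1 fell against control, where 9.99% of all genes tested were called (5.83% higher and 4.16% lower). The median member change was 0.09 (quartiles 0.01 and 0.17), beside 0.03 for all genes tested, and 60 of 79 members had a value above 0. Within library set A alone, with 1 heart on each side, the median was -0.05, below 0, so the sign of the median turned. At 7 d, 17 members lay above and 2 below all control hearts without overlap, while 31.7% of all genes tested had groups that did not overlap. Against 12 h, 3 members rose and 1 fell, where 15.6% of all genes tested were called (11.8% higher and 3.88% lower), and the median of 0.13 equaled that of all genes tested. At 7 d against 12 h, 18 members lay above and 1 below without overlap, beside 30.4% of all genes tested.

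**Figure D2:**
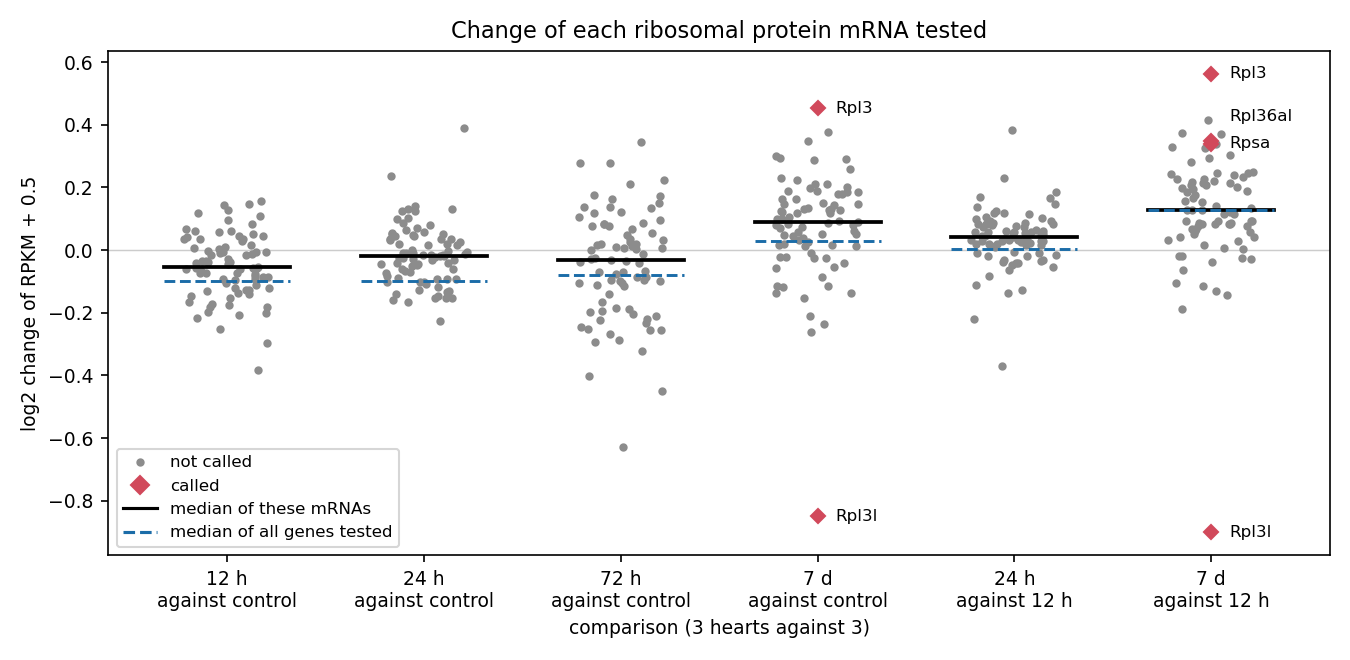
Log2 change of RPKM + 0.5 for each of 79 members (gray points, red diamonds where called) in 6 comparisons of 3 hearts with 3, with the median of the members (black line) and of all genes tested (blue dashed line). Members spread around 0, and Rpl3l at -0.85 and -0.90 stands below the rest in both comparisons of 7 d.

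Summed over the 73 canonical members, the level was 27217 ± 1730 RPKM in control (SD, n = 3), 26386 ± 1040 after 12 h, 26923 ± 1490 after 24 h, 26372 ± 1427 after 72 h and 28596 ± 2005 after 7 d. These sums overlapped between every time point and control. As a part of all RPKM in a heart, they made up 6.37 ± 0.37% in control and 6.69 ± 0.23% at 7 d. The large subunit members summed to 15049 ± 975 RPKM in control and 15807 ± 1115 RPKM at 7 d, and the small subunit members to 11419 ± 755 and 12034 ± 756 RPKM.

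The clearest change was a fall of Rpl3l, the muscle paralog of Rpl3, at 7 d. Rpl3 itself rose, but its call was lost under several alternatives. Rpl3l (chr17:24864774-24873094 in mm9, plus strand) was at 176, 209 and 182 RPKM in the control hearts, and at 167, 207 and 216 RPKM at 12 h. It was at 175, 194 and 193 RPKM at 24 h and at 151, 139 and 188 RPKM at 72 h. At 7 d it was at 95.3, 109 and 110.3 RPKM. All 7 d hearts lay below all other hearts, and the 72 h hearts reached from below the controls into their range. The 7 d mean was 0.554 times control, a log2 change of -0.85 (SE 0.13, limma adjusted p = 0.000800), and against 12 h the change was -0.90 (SE 0.13, adjusted p = 0.000401). At 72 h the value was -0.25 (SE 0.13, adjusted p = 0.394).

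Rpl3 (chr15:79908211-79913836 in mm9, minus strand), the canonical protein, went the other way. Its level was 130.0, 141 and 139 RPKM in control, 115, 142 and 124 RPKM at 12 h, and 144, 119 and 134 RPKM at 24 h. At 72 h it was 130.3, 114 and 144 RPKM, and at 7 d it was 159, 201 and 205 RPKM. All 7 d hearts lay above every other heart. The 7 d mean was 1.38 times control, a log2 change of 0.45 (SE 0.12, limma adjusted p = 0.0304), and 0.56 against 12 h (SE 0.12, adjusted p = 0.00733). With the library set as a covariate the call against 12 h was lost (0.40, adjusted p = 0.0533), as it was with Y-linked mRNA (0.67, adjusted p = 0.0789) and with both (0.65, adjusted p = 0.202). The rise against control was 0.29 with the library set as a covariate (adjusted p = 0.153) and 0.53 with Y-linked mRNA as a covariate (adjusted p = 0.0837), and the call was lost in each. It was also lost without any 1 of the control hearts, without 7 d replicate 2 or without 7 d replicate 3 (0.39 to 0.48).

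Within library set A, the 7 d heart had 0.540 times the Rpl3l level and 1.23 times the Rpl3 level of the control heart. The 2 coding sequences share 73.9% of 1212 aligned bases and no 36-base stretch, so reads of this length from 1 do not match the other exactly. Of the 36-base stretches of Rpl3, 96.9% occur elsewhere in mm9, and of those of Rpl3l 0.0%.

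Rpl3l made up 58.0 ± 1.6% of the summed Rpl3 and Rpl3l level in control hearts (SD, n = 3), 60.7 ± 2.5% after 12 h, 58.6 ± 3.6% after 24 h, 55.1 ± 1.4% after 72 h and 35.9 ± 1.3% after 7 d. The difference of 7 d from control was -22.1 percentage points, with hearts at 35.0% to 37.4% against 56.7% to 59.7%. The groups did not overlap, and p was 0.1 in an exact permutation test (two-sided), the smallest that 3 hearts against 3 allow. At 72 h the share was also below all control hearts, with a difference of -2.89 points (exact p = 0.1). Over the 8 comparisons of groups made, the adjusted p of both was 0.2. The sum of both mRNAs was 326 ± 22 RPKM in control and 293 ± 33 RPKM at 7 d, and the groups overlapped. Both the share and the sum depend on how reads from the shared stretches of Rpl3 were counted, so their size is uncertain.

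**Figure D3:**
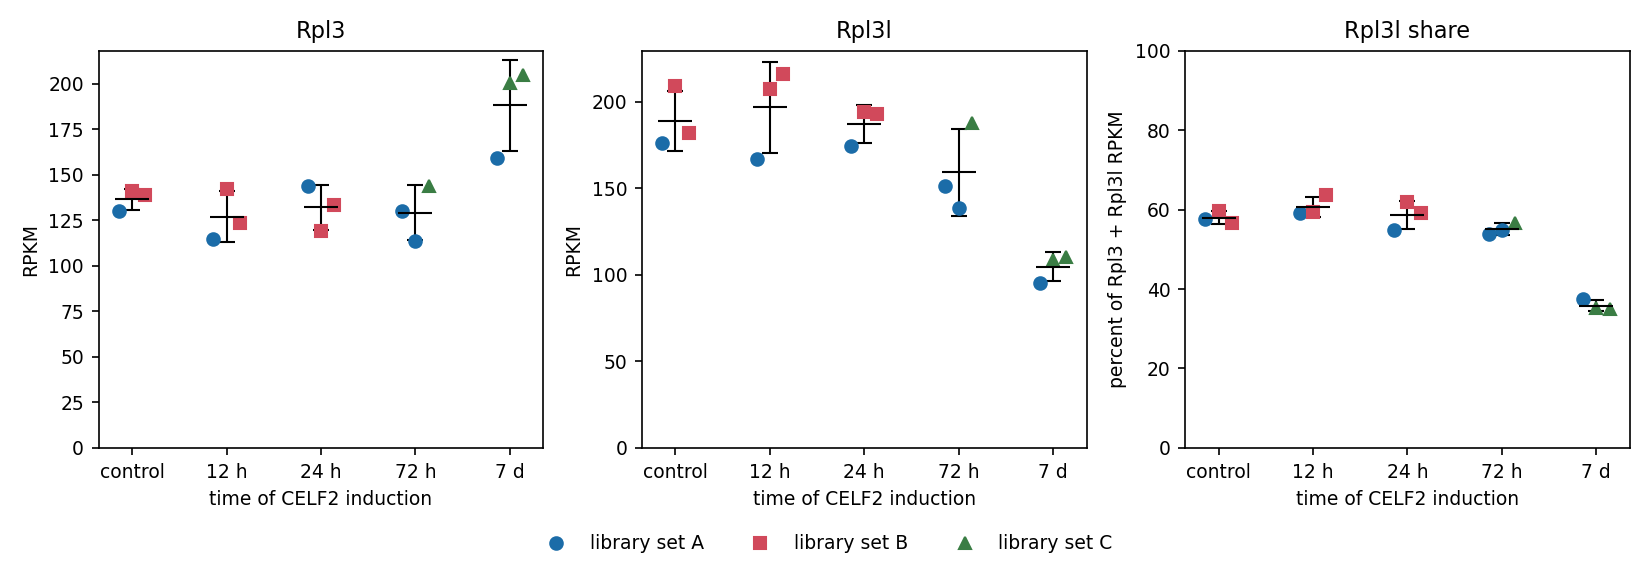
RPKM of Rpl3 (left) and Rpl3l (middle) and the Rpl3l share of their sum in percent (right) for each of 15 hearts, by group, with mean and SD (black) and the library set as the symbol. At 7 d, Rpl3 lies above and Rpl3l below all other hearts, and the share falls to 35.0% to 37.4%, in set A and set C alike.

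Cardiomyocyte genes other than Rpl3l also changed at 7 d, and their part in the Rpl3l result was not tested. Of 8 markers, 1 rose and 2 fell against control (5.83% of all genes tested called higher and 4.16% lower), and 7 of the 8 had a value below 0, with a median log2 change of -0.22. Actc1, cardiac actin, rose by 0.63 (SE 0.08, adjusted p = 0.000367), while Pln, the regulator of the calcium pump, fell by 0.41 (SE 0.10, adjusted p = 0.0156) and Myh6, the adult cardiac myosin whose promoter drives the activator, fell by 0.36 (SE 0.09, adjusted p = 0.0261). All 3 are log2 changes. Of 7 endothelial markers, 1 fell at 7 d, Flt1 (-0.36, SE 0.10, adjusted p = 0.0406), and 5 of 7 were below 0. None of 4 smooth muscle markers was called, and all 4 were below 0 with a median of -0.59. Their part was not tested either.

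The shares of the other 5 paralogs moved by at most 5.85 points at 7 d. Rpl36al, which matches Rpl36a in 87.9% of aligned coding bases and is encoded on another chromosome, was at 142, 115 and 110.3 RPKM in control and 125, 115 and 112 RPKM at 12 h. At 7 d it was at 151, 146 and 151 RPKM, above all hearts of both groups. It rose by 0.35 on the log2 scale from 12 h to 7 d (SE 0.10, limma adjusted p = 0.0277), and the value against control was 0.29 (adjusted p = 0.0741). The call was lost with median-ratio scaling (0.22, adjusted p = 0.252) and with the library set as a covariate (0.28, adjusted p = 0.0586), and in 5 of 15 fits that each left out 1 heart (0.32 to 0.37). It was also lost with Y-linked mRNA as a covariate (0.51, adjusted p = 0.0797). Its share of the pair was 38.1 ± 0.6% in control and 44 ± 2.8% at 7 d, without overlap. The 7 d heart of set A was at 40.7%, the lowest of the 3, and its Rpl36al level was 1.06 times that of the set A control. Of the 36-base stretches of Rpl36al, 87.4% occur elsewhere in mm9.

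Rps27l, a paralog of Rps27 that p53 is known to induce, was at 68.9, 83.1 and 62.8 RPKM in control and at 50.0, 56.7 and 54.7 RPKM at 72 h. All 72 h hearts were below the controls, but the log2 value of -0.40 did not pass (SE 0.16, adjusted p = 0.291). Its share of the pair was 22.1 ± 2.1% in control and between 17.3% and 19.3% on average at the 4 time points, each without overlap with control. Rpl22l1 made up 6.46 ± 1.56% of its pair with Rpl22 in control and 6.27 ± 0.59% at 7 d. Rpl7l1, which resembles Rpl7 in 55.2% of aligned coding bases, made up 7.21 ± 0.82% in control and 8.61 ± 0.44% at 7 d, with 1 control heart inside the 7 d range. Rpl39l made up 0.557 ± 0.440% and 0.571 ± 0.023%. Over the 24 comparisons of a pair's share with control, the smallest exact p was 0.1, the least that 3 against 3 can give, and 0.3 after adjustment.

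**Figure D4:**
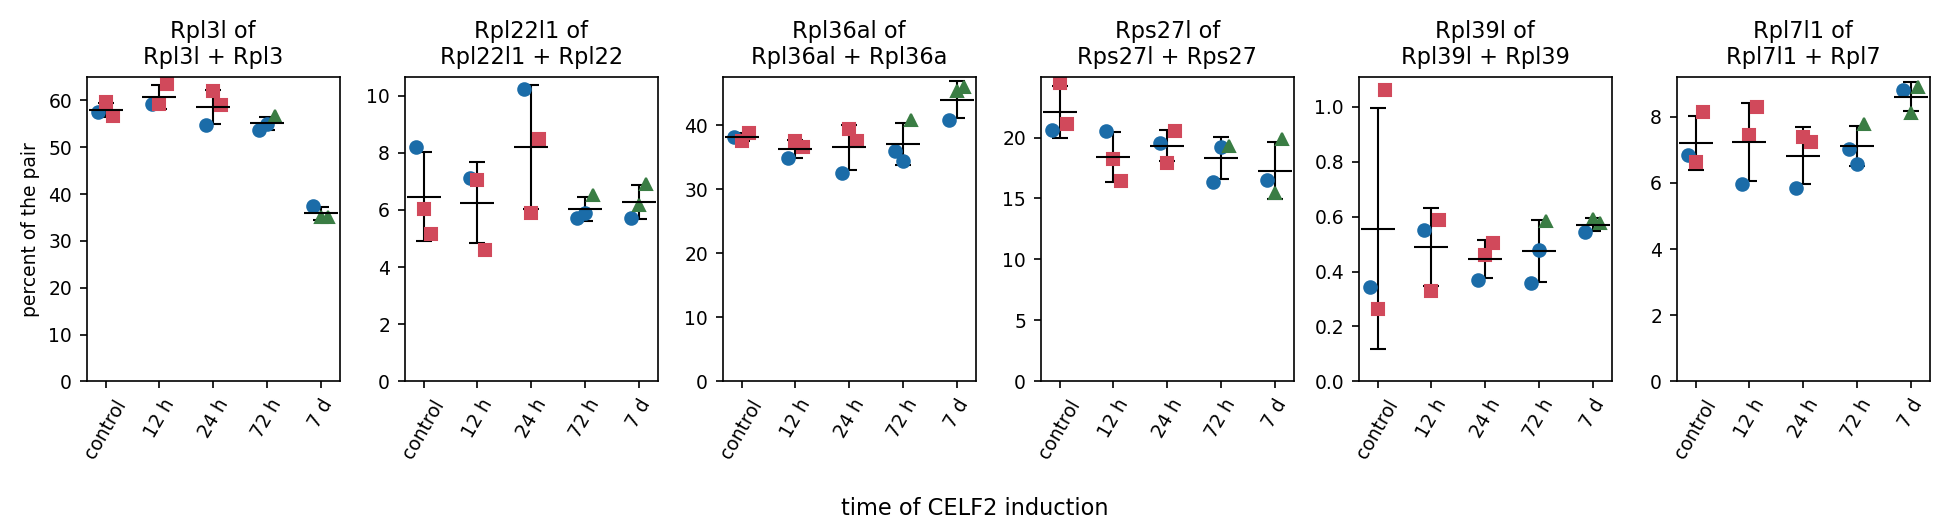
Share of the paralog in the summed RPKM of each paralog and its canonical partner, in percent, for each heart by group, with mean and SD (black) and library sets as circles (A), squares (B) and triangles (C). The vertical axes start at 0 and differ in scale. Rpl3l drops from 58.0% to 35.9% on average, and the other 5 shares move by at most 5.85 points at 7 d.

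Rpsa, the small subunit protein also known as the laminin receptor precursor, was the other member called. Its level was 382, 420.4 and 368 RPKM in control, 345, 414 and 379.5 RPKM at 12 h and 423, 519.9 and 501 RPKM at 7 d, above all hearts of both groups though by 3 RPKM in the closest case. It rose by 0.34 from 12 h to 7 d (SE 0.10, limma adjusted p = 0.0406), and the value against control was 0.30 (SE 0.10, adjusted p = 0.0869). Without a filter on low genes the adjusted p was 0.0528, and with median-ratio scaling the change was 0.22 (adjusted p = 0.123). With the library set as a covariate it was 0.21 (adjusted p = 0.219), and the call was lost in 8 of 15 fits that each left out 1 heart (0.27 to 0.34). The call was also lost with Y-linked mRNA as a covariate (0.49, adjusted p = 0.111). Within set A the 7 d heart was at 1.11 times the control heart.

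None of the canonical members listed next by role, stalk mRNAs included, passed the test at 7 d against control. Rps6, the target of S6 kinase, was at 422 RPKM in control and 416 RPKM at 7 d (log2 -0.02, SE 0.10). Rpl5 and Rpl11, which can bind Mdm2 and so stabilize p53, had values of 0.08 (SE 0.12) and 0.05 (SE 0.09) at 7 d. Rpl10, a late joining protein of the large subunit, was at 414 RPKM in control and 477 RPKM at 7 d, with the groups apart (0.20, SE 0.10, adjusted p = 0.240). For Rpl38, linked to the translation of Hox mRNAs, the value was -0.09 (SE 0.11), and for Rps27a, made as a fusion with ubiquitin, it was 0.16 (SE 0.14). Rps19, a gene of Diamond-Blackfan anemia, was at 243 and 299 RPKM with the groups apart and did not pass (0.29, SE 0.13, adjusted p = 0.171). Rps3 had a value of 0.15 (SE 0.10), with 14.8% of its 36-base stretches shared. The stalk mRNAs, whose proteins recruit elongation factors, had -0.04 (Rplp1, SE 0.19) and 0.07 (Rplp2, SE 0.13).

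Several members had larger values that did not pass. Rps21 was at 379, 459 and 343 RPKM in control and at 242, 179 and 371 RPKM at 72 h, a log2 value of -0.63 (SE 0.23, adjusted p = 0.242). Its low 72 h hearts were both of set A, and the heart of set C lay inside the control range. Without the set C heart the value was -0.91 (adjusted p = 0.0355). At 7 d Rps21 was back at 325 to 417 RPKM (-0.06 against control). Rps28 had the next highest value after Rpl3 at 7 d, 0.38, with a wide error (SE 0.23, adjusted p = 0.348). Rps13 had the highest value at 12 h (0.16, SE 0.10, adjusted p = 0.537) and 0.29 at 7 d (SE 0.10, adjusted p = 0.0765), while Rpl22l1 had the highest at 24 h (0.39, SE 0.25, adjusted p = 0.654).

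The members differed between library sets in a way that followed base composition. Within control, 12 h and 24 h, the hearts of set A were higher than those of set B for Rps15a (by 0.60 on the log2 scale on average), Rps28 (0.57), Rpl22l1 (0.54), Rpl26 (0.51) and Rpl39 (0.49), and lower for Rpl41 (-0.67), Rpl18 (-0.37) and Rps14 (-0.35). These members were named after their values were seen. Over 78 members with a coding sequence, the difference fell with the GC of that sequence (Spearman's rho = -0.64), and the difference between sets A and C, taken from 72 h and 7 d hearts that the first difference did not use, did so as well (rho = -0.57). Over 9369 genes tested the values were -0.73 and -0.77. Points share their libraries and base composition, so these are descriptions. The named differences between sets A and B are the extremes of the members, so they are not comparable with the median change of the members. Rpl3 (51.6% GC) and Rpl3l (56.3% GC) lay in the middle and upper part of the GC range. Their differences were -0.04 and -0.21 between sets A and B, and -0.29 and -0.28 between sets A and C. Set C holds 7 d hearts but no control heart. The part of library set in the values of members was not tested beyond the covariate and the values within sets given here.

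**Figure D5:**
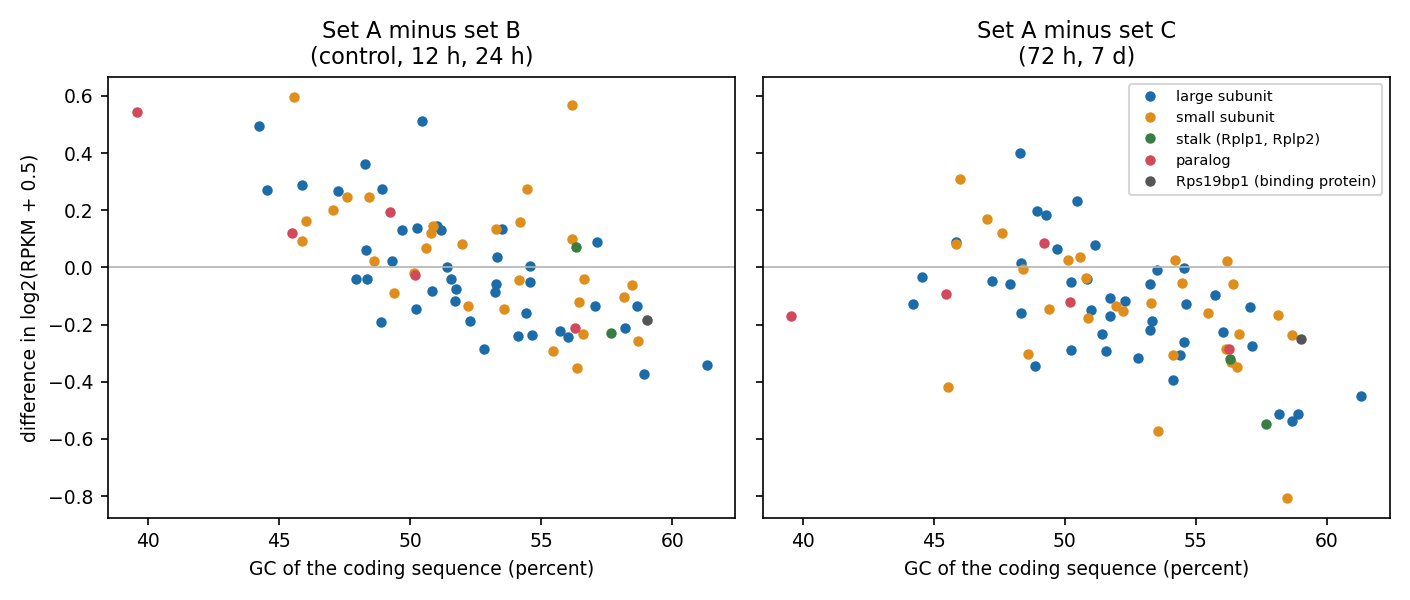
Difference in log2(RPKM + 0.5) between library sets A and B (left, mean over control, 12 h and 24 h) and between sets A and C (right, mean over 72 h and 7 d) against the GC percentage of the coding sequence, for 78 members colored by class. Members of low GC tend to be higher in set A, with rho of -0.64 and -0.57.

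Other genes of the pathway were counted by the same test. Of 20 TOP mRNAs outside the ribosome, 3 rose and none fell at 7 d against control, where 5.83% of all genes tested were called higher. These were Eif3h (0.41, adjusted p = 0.00264), a subunit of an initiation factor, Eef1g (0.52, adjusted p = 0.00283), a subunit of an elongation factor, and Naca (0.28, adjusted p = 0.0451), which binds nascent chains. Eef1g went from 159 ± 5 to 229 ± 16 RPKM (SD, n = 3). Of 41 ribosome assembly genes tested, 4 rose and none fell, among them Nmd3, the export adaptor of the large subunit, at 8.73 ± 1.08 RPKM in control and 15.3 ± 1.5 RPKM at 7 d (0.78, SE 0.15, adjusted p = 0.00494), Tsr1 (0.51, adjusted p = 0.00910) and Rrp12 (0.57, adjusted p = 0.0155). Of 10 genes of RNA polymerase I, which transcribes rRNA, 1 rose, Polr1e, from 7.99 ± 0.22 to 13.7 ± 1.2 RPKM (0.74, adjusted p = 0.00187). Of 21 mTORC1 and TOP regulators, 2 rose, the transcription factor gene Mycn (1.36, SE 0.23, adjusted p = 0.00226) and Tial1, which encodes an RNA-binding protein (0.45, adjusted p = 0.00803). No gene of these 4 lists was called at 12 h, 24 h or 72 h against control.

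None of 10 genes of ribosomal stress and p53 was called against control at any time, and 1, Zmat3, rose from 12 h to 7 d (0.63, adjusted p = 0.0118). In the same comparison, where 11.8% of all genes tested were called higher, 4 TOP mRNAs, 4 assembly genes (with 1 lower, Ebna1bp2), 1 RNA polymerase I gene and 3 regulators rose.

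More calls fell on the mitochondrial ribosome. Of its 72 protein genes, all tested, 16 rose and none fell at 7 d against control, with a median log2 change of 0.21, while 1 of 79 members of the cytosolic list rose (5.83% of all genes tested called higher). Mrpl9 went from 18.5 ± 0.7 to 30.8 ± 3.0 RPKM (0.72, SE 0.11, adjusted p = 0.00115), and Mrpl46 (0.63, adjusted p = 0.00172) and Mrps36 (0.55, adjusted p = 0.00195) followed. At 72 h, 3 mitochondrial members had risen (0.237% of all genes tested called higher), with a median of 0.12. No test of the difference between the lists was made. As a comparison by gene size, 1259 other genes with coding sequences of at most 603 bases had 85 higher and 56 lower calls at 7 d and a median of 0.03, beside the median of 0.09 for the 79 members.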

How the data were processed

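The authors mapped strand-specific read pairs of poly(A)+ RNA to mm9 with Bowtie and TopHat (versions not given in the sources used here) and deposited 1 table of RPKM per gene and heart, scaled to constitutive coding length and to uniquely mapping reads outside ribosomal and mitochondrial RNA. Values have 2 decimals and library depth is unknown. Between 1463 and 1977 genes were listed at 0 per heart, no 2 libraries were identical, and no column was left unused.

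Here, log2(RPKM + 0.5) was fitted with limma 3.58.1 (R 4.3.3, trend option) for the 10557 genes whose mean reached 1 RPKM, all 5 groups together, and a Benjamini-Hochberg adjusted p under 0.05 over these genes was called. Log2 changes are on that scale and understate changes of low genes, while values given as times control are ratios of RPKM. The test was checked on simulated data. Shares were compared by exact two-sided permutation tests (scipy 1.17.1). Coding sequences and 36-base stretches came from the mm9 genome with GENCODE M1, Rpl41 without an entry, and promoters from RefSeq (GRCm38.p6, no match for 20 members). The short coding list used annotated coding length in place of protein length.

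Members, lists and the rule for named genes were chosen with earlier results of these data known. Named are members with listed roles or paralogs, up to 5 called per direction and comparison, the extreme value of each comparison, the 3 highest and 3 lowest levels, and up to 3 called genes per other list. Others were chosen after their values were seen. Alternatives were 2 pseudocounts, 2 filters, 3 scalings, library set and Y-linked mRNA as covariates, fits of the compared groups alone, canonical members alone, values within library sets, and leaving out each heart. The share of Rpl3l without single hearts and within set A was added after seeing the data. Values of 1 member are not reported here, and it still counts in the totals.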

Additional observations from a re-analysis of the deposited data

How the results depend on the processing

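The fall of Rpl3l at 7 d against control was called under all 26 alternatives, at -0.90 to -0.77 when hearts were left out in turn (adjusted p from 0.000383 to 0.00674). Its fall against 12 h was lost with library set and Y-linked mRNA both as covariates (-0.67, adjusted p = 0.0797). The number of members called at 7 d against control, 2 in the report, was 1 with library set and 1 with Y-linked mRNA as a covariate, and ranged from 1 to 4 when hearts were left out, where 4 came without 7 d replicate 1 and 1 without control replicate 3, 7 d replicate 2 or 7 d replicate 3. At 7 d against 12 h the number, 4 in the report, was 1 with library set, 1 with Y-linked mRNA and 1 with both as covariates, 2 with the compared groups alone, and 2 to 6 when hearts were left out (2 without 12 h replicate 3, 7 d replicate 2 or 7 d replicate 3). With median-ratio or upper-quartile scaling the number at 7 d against 12 h was 3, with Rpl3 higher and Rpl3l and Rps10 lower. Rps10 was also called lower in this comparison with quantile normalization and without 12 h replicate 1. With both covariates, 2 members were called at 12 h against control, Rpl18 and Rps16, both lower. At 72 h it was 0 to 1, the 1 being Rps21 without 72 h replicate 3. For 12 h and 24 h against control and 24 h against 12 h it stayed at 0 when hearts were left out. The causes were not tested. With both covariates Rpl4 was called higher at 7 d in place of Rpl3.

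The medians of the members moved by less than the median spread between hearts (0.15 on the log2 scale) under every alternative. The sign of some medians changed with the scaling, with Y-linked mRNA as a covariate, without single hearts or within set A. Among the 4524 values of the 29 named members under alternatives, 39 lost a call, 8 gained a call and none of those called reversed. The Rpl3l share at 7 d minus control was -22.9 to -21.3 points when hearts were left out and -20.2 points within set A. No paired analysis was possible because the labels give no replicate numbers that link the groups. Depth is unknown, so the spread between hearts is the only measure of precision. In the limma fits this spread was pooled over all 5 groups and drawn toward a trend over all genes tested.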

Other observations

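The spread between hearts of 1 group differed widely among members. The within-group SD of log2(RPKM + 0.5) was 0.08 for Rpl10a and Rpl22 and 0.39 for Rps15a, with a median of 0.15 over 79 members. Rpl41, the shortest protein of the ribosome, had 0.38, and its 12 h hearts were at 454, 850.0 and 1147 RPKM, the lowest being that of library set A.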
